A study of Mus musculus with 16 samples.

Results

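The interleukin-1 (IL-1) family genes and Il6 were followed in pieces of PDA30364 tumors after chemotherapy, an agonist antibody to the immune receptor CD40, or both. The genes were fixed by name as Il1a, Il1b, Il1rn, Il1r1, Il1r2, Il18, Il18bp, Il33, Il1rl1 and Il6, and a gene was measured where a probe set was annotated to it alone. This gave 9 of the 10 genes with 12 probe sets, of 18193 named genes and 45037 probe sets in all. Il1rl1 was not analysed here. Of the 3 probe sets of Il1rn and the 2 of Il1r1, the brightest by its mean of all 16 arrays stands for the gene.

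PDA30364 is a cell line from a mouse pancreatic tumor, so that all tumors descend from 1 line, and its cells were injected under the skin of C57BL/6-Ly5.1 mice aged 6 to 12 weeks. The 4 groups had 4 arrays each. GEM/anti-CD40 mice received the nucleoside analog gemcitabine (GEM), which stops DNA synthesis, at 120 mg/kg on days 1, 5 and 12 of treatment, and were given the agonist anti-CD40 antibody on day 3, day 4, day 6 and day 14. Anti-CD40 mice received vehicle and the antibody, GEM mice received GEM and an isotype antibody, and control mice received vehicle and isotype antibody on the same days. All tumors were taken on days 22 to 23 after inoculation, and the RNA is that of tumor cells, stroma and immune cells together. In such bulk samples more cells of a type and more RNA per cell cannot be told apart.

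IL-1 alpha and IL-1 beta, the products of Il1a and Il1b, bind the receptor Il1r1 and activate NF-kB, a transcription factor that switches on chemokines, acute phase genes and Il6. The receptor antagonist Il1rn occupies the same receptor without signaling, and Il1r2 is a decoy that binds IL-1 but has no signaling domain. IL-18 is held in check by the secreted binding protein Il18bp, IL-33 is a nuclear alarmin of epithelial and stromal cells, and IL-6 signals to STAT3 through its own receptor.

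All values are log2 intensities of the robust multi-array average (RMA), in which 1 unit is a 2-fold difference, and levels of different probe sets were not set against each other. The median probe set had a mean of 5.62. Markers of tumor epithelium, which check the labelled tissue, averaged between 11.70 and 12.43 in the 16 arrays. Some arrays stood apart for other tissues. The mean of the 5 measured skin keratinocyte markers was 9.81 in control replicate 2 and 7.71 in anti-CD40 replicate 2, against 5.12 to 5.91 elsewhere. The mean of the 6 skeletal muscle markers was 13.02 in GEM/anti-CD40 replicate 4, against 4.65 to 8.36 elsewhere. The labels of GEM replicates 3 and 4 share an animal number, although 4 mice per group are stated.

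The upstream sequences of the genes with the widest differences between groups show which of their starts carry the letters known for NF-kB and its partners. They come from RefSeq (GRCm38.p6), run 5′ to 3′ on the strand of the gene and end at its first base. Capitals mark matches on either strand to NF-kB (GGGNNTTNC), AP-1 (TGANTCA) or C/EBP (TTNCNNAA). For Il1b, whose longest transcript begins 25 bases further upstream, those 25 bases were left out. Only 30 bases around the NF-kB match are given for Il1rn, from the last of its 3 listed starts.
Il6, chr5:30012864-30013113, plus strand: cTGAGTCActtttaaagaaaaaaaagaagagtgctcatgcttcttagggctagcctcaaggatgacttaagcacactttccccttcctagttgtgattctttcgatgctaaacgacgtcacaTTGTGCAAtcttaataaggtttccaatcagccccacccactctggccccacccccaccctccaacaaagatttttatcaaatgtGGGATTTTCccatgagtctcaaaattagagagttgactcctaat
Il1rn, chr2:24345310-24345339, plus strand: ggaaatatgaGGGTTTTTCcgcttctgaca
Il1b, chr2:129371165-129371389, minus strand: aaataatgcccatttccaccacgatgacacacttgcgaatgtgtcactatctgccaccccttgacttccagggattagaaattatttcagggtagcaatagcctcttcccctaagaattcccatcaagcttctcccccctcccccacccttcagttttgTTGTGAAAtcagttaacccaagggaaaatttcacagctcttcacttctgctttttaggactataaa
Il18bp, chr7:102018233-102018482, minus strand: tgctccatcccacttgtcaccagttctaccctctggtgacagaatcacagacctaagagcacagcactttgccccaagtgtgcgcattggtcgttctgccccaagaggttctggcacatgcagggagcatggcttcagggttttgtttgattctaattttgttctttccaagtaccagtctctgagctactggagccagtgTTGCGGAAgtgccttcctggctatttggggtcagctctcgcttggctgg

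The NF-kB letters stand 44 bases before the start of Il6, 51 before the last start of Il1rn and 232 before a start of Il1r1, and 13% of all 32851 RefSeq windows of 250 upstream bases hold them. The AP-1 letters stand 249 bases before the start of Il6, 12 before a start of Il1a and 141 before the first start of Il1rn, against 6.7% of windows. C/EBP letters occur in 36.8% of windows and so separate few genes. Il1r2 has a match to the STAT site GAS (TTCNNNGAA, in 7.0% of windows) 111 bases before a start. The starts meant here for Il1a, Il1r1 and Il1r2, and the last of Il1rn, lie inside the span of the gene. Their matches are thus not upstream of the longest transcript. No window of these genes holds the interferon element ISRE (TTCNNTTTC, in 7.1% of windows), and Il18 has none of the 5 motifs. These are matches of letters, not measured binding.

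The agonists Il1a and Il1b were both higher in the tumors of GEM/anti-CD40 mice than in those of control mice, without overlap between the groups. Il1b measured 9.58, 8.82, 8.03 and 8.23 in GEM/anti-CD40 replicates 1 to 4, 7.96, 8.21, 8.31 and 8.68 in anti-CD40 tumors, 7.70, 7.85, 7.84 and 8.06 in GEM tumors, and 7.86, 8.00, 7.22 and 7.41 in control tumors. The lowest GEM/anti-CD40 array thus lay just above the highest control array, and the lowest anti-CD40 array just below it. Il1b was 1.04 higher on the log2 scale in GEM/anti-CD40 than in control tumors (SE 0.33, n = 4 each, adjusted p = 0.456). Against control it differed by 0.67 in anti-CD40 tumors (SE 0.20, adjusted p = 0.807) and by 0.24 in GEM tumors (SE 0.17, adjusted p = 0.868).

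Il1a measured 7.54, 7.27, 8.11 and 7.55 in GEM/anti-CD40 tumors, 7.51, 8.01, 7.02 and 7.24 in anti-CD40 tumors, 7.62, 7.74, 6.87 and 7.06 in GEM tumors, and 7.17, 7.03, 7.05 and 6.24 in control tumors. Control replicate 4 was the lowest of the 16 arrays. Il1a was 0.75 higher in GEM/anti-CD40 than in control tumors (SE 0.23, adjusted p = 0.456), 0.57 higher in anti-CD40 than in control tumors (SE 0.25, adjusted p = 0.807) and 0.45 higher in GEM than in control tumors (SE 0.25, adjusted p = 0.856), all by limma. Without control replicate 4 these were 0.53, 0.36 and 0.24. The order of its group means was GEM/anti-CD40, anti-CD40, GEM and control, and neighbors in that order overlapped.

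Il1rn, the receptor antagonist, was high in both groups that received GEM. It measured 9.66, 9.17, 9.23 and 8.93 in GEM/anti-CD40 tumors, 9.0, 8.66, 8.74 and 9.0 in anti-CD40 tumors, 9.11, 9.0, 9.38 and 9.56 in GEM tumors, and 8.48, 8.40, 8.09 and 8.74 in control tumors. Neither GEM/anti-CD40 nor GEM tumors overlapped control tumors, whereas anti-CD40 tumors did. The difference from control was 0.84 in GEM tumors (SE 0.16, adjusted p = 0.487), 0.82 in GEM/anti-CD40 tumors (SE 0.17, adjusted p = 0.360) and 0.42 in anti-CD40 tumors (SE 0.14, adjusted p = 0.807). GEM/anti-CD40 and GEM tumors differed by -0.02 (95% interval -0.39 to 0.36). GEM/anti-CD40 tumors were 0.40 higher than anti-CD40 tumors, with overlap (SE 0.15, adjusted p = 0.937 by limma). Il1rn was the member with the smallest adjusted p for the GEM main effect, the mean of the 2 groups with GEM minus the mean of the 2 without, at 0.62 (SE 0.12, adjusted p = 0.309), and ranked 13 of the 45037 probe sets by p.

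The other 2 probe sets of Il1rn followed the one that represents it in GEM against control tumors, and differed from each other for the antibody. In GEM against control tumors they differed by 0.70 (SE 0.11, adjusted p = 0.269) and by 0.80 (SE 0.13, adjusted p = 0.292), again without overlap. In GEM/anti-CD40 against control tumors the first differed by 0.81 without overlap and the second by 0.53 with overlap. In anti-CD40 against control tumors they differed by 0.45 without overlap (SE 0.11, adjusted p = 0.737) and by 0.315 with overlap (SE 0.12, adjusted p = 0.807), by limma. In GEM/anti-CD40 against anti-CD40 tumors they differed by 0.36 and 0.22, both with overlap. Their anti-CD40 main effects were 0.28 (adjusted p = 0.254) and 0.03 (adjusted p = 0.957). Probe sets of 1 gene share its RNA and are no replicates of each other.

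The signaling receptor Il1r1 varied least. It lay between 8.93 and 9.12 in GEM/anti-CD40 tumors, 8.98 and 9.50 in anti-CD40 tumors, 9.0 and 9.07 in GEM tumors, and 8.90 and 9.15 in control tumors, and the difference of GEM/anti-CD40 from control tumors was 0.01 (95% interval -0.17 to 0.18). Its other probe set lay near the lowest values of the arrays, with a mean of 2.82, and bears no information on this receptor. The decoy Il1r2 measured 8.16, 8.09, 7.91 and 7.63 in GEM/anti-CD40 tumors, 7.31, 7.47, 7.28 and 7.67 in anti-CD40 tumors, 7.27, 6.97, 7.42 and 7.67 in GEM tumors, and 7.23, 7.97, 7.07 and 7.55 in control tumors. Of its 4 highest arrays 3 were GEM/anti-CD40 arrays, and the other was control replicate 2, one of the arrays with skin genes. Il1r2 was 0.49 higher in GEM/anti-CD40 than in control tumors (SE 0.20, adjusted p = 0.497), 0.62 higher than in GEM tumors (SE 0.16, adjusted p = 0.241) and 0.52 higher than in anti-CD40 tumors (SE 0.13, adjusted p = 0.937), and in each of these the groups overlapped. Without the arrays with skin or muscle genes the difference from control was 0.77.

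**Figure D1:**
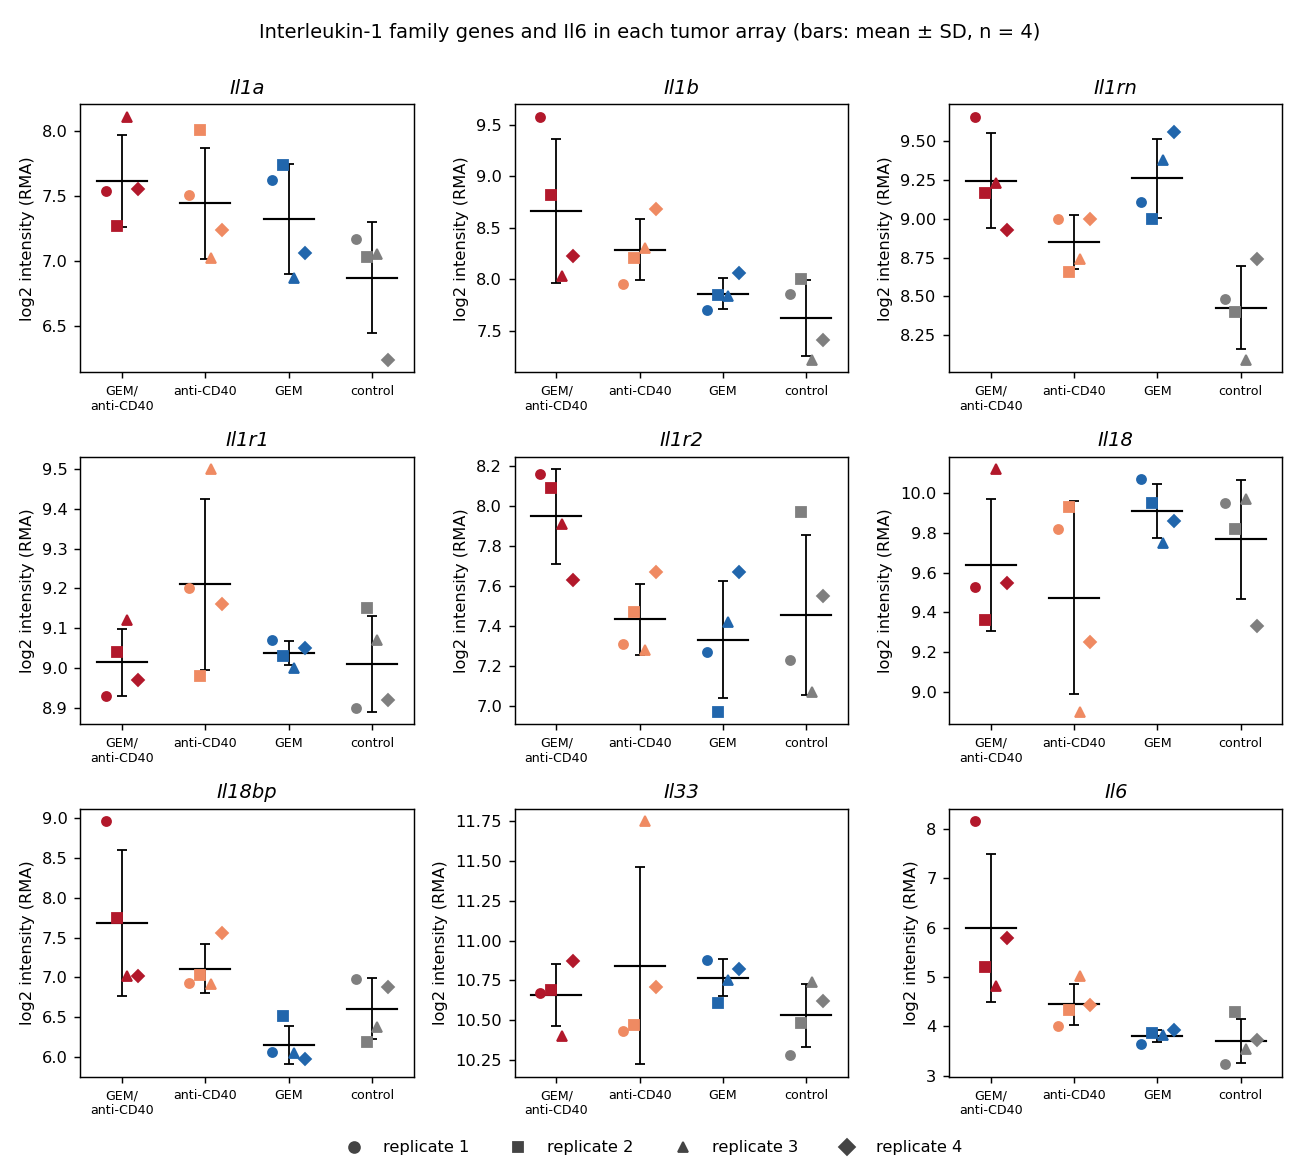
RMA log2 intensity (y axis) of the 9 measured genes in every array of the GEM/anti-CD40, anti-CD40, GEM and control groups (x axis). Symbols are replicates and black bars the mean ± SD of 4 arrays, and each panel has its own scale. Il1a, Il1b, Il1rn, Il18bp and Il6 lie above control without overlap in GEM/anti-CD40 tumors, and replicate 1 of that group is the highest array for Il1b, Il1rn, Il1r2, Il18bp and Il6.

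Il18 and its binding protein Il18bp differed in how they varied. Il18 measured 9.53, 9.36, 10.12 and 9.55 in GEM/anti-CD40 tumors, 9.82, 9.93, 8.90 and 9.25 in anti-CD40 tumors, 10.07, 9.95, 9.75 and 9.86 in GEM tumors, and 9.95, 9.82, 9.97 and 9.33 in control tumors. All 4 groups overlapped, and GEM/anti-CD40 differed from control tumors by -0.13 (95% interval -0.56 to 0.30). Il18bp measured 8.96, 7.75, 7.02 and 7.02 in GEM/anti-CD40 tumors, 6.93, 7.03, 6.92 and 7.56 in anti-CD40 tumors, 6.06, 6.51, 6.05 and 5.98 in GEM tumors, and 6.98, 6.19, 6.38 and 6.88 in control tumors.

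Every array of the 2 groups with the antibody thus lay above every GEM array for Il18bp, and GEM/anti-CD40 replicate 1 stood far above the others of its group. The difference of GEM/anti-CD40 tumors was 1.54 from GEM tumors (SE 0.39, adjusted p = 0.237) and 1.08 from control tumors (SE 0.41, adjusted p = 0.486). Without replicate 1 these were 1.11 and 0.66. GEM tumors alone differed from control tumors by -0.46 (SE 0.19, adjusted p = 0.852) and anti-CD40 tumors by 0.50 (SE 0.20, adjusted p = 0.807). The anti-CD40 main effect, the mean of the 2 groups with the antibody minus the mean of the 2 without, was 1.02 for Il18bp (SE 0.24, adjusted p = 0.0721), the smallest adjusted p of any member in any comparison. For Il1b it was 0.74 (SE 0.19, adjusted p = 0.108). When 1 array was left out, a call was made for Il6 alone without GEM/anti-CD40 replicate 1 (1.10, adjusted p = 0.0263), and for Il1b (0.84, 0.0328), Il18bp (1.13, 0.0287) and Il6 (1.66, 0.0281) without replicate 3 of that group.

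The alarmin Il33 lay between 10.40 and 10.87 in GEM/anti-CD40 tumors, 10.61 and 10.88 in GEM tumors, and 10.28 and 10.74 in control tumors. Anti-CD40 tumors measured 10.43, 10.47, 11.75 and 10.71, and replicate 3 was the highest of the 16 arrays. The same array was the highest for Il1r1 (9.50) and the lowest for Il18 (8.90). GEM/anti-CD40 differed from control tumors by 0.13 for Il33 (95% interval -0.15 to 0.41).

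Il6 showed the widest differences, from a low level. It measured 8.15, 5.20, 4.81 and 5.79 in GEM/anti-CD40 tumors, 4.01, 4.34, 5.01 and 4.43 in anti-CD40 tumors, 3.64, 3.86, 3.82 and 3.92 in GEM tumors, and 3.23, 4.30, 3.54 and 3.73 in control tumors. GEM/anti-CD40 replicate 1 stood far above the other 15 arrays, and no detection call was used to tell low values from background. Il6 was 2.29 higher in GEM/anti-CD40 than in control tumors (SE 0.64, adjusted p = 0.436) and 2.18 higher than in GEM tumors (SE 0.61, adjusted p = 0.264), without overlap in either. Without GEM/anti-CD40 replicate 1 the differences were 1.57 and 1.46.

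Il6 in GEM/anti-CD40 tumors was also 1.54 higher than in anti-CD40 tumors, with overlap (SE 0.63, adjusted p = 0.937), and 0.82 higher without GEM/anti-CD40 replicate 1. Anti-CD40 alone differed from control by 0.75 (SE 0.25, adjusted p = 0.807) and GEM alone by 0.11 (SE 0.19, adjusted p = 0.955). The anti-CD40 main effect was 1.46 (SE 0.36, adjusted p = 0.0876). The interaction, by which the change with both treatments departs from the sum of the single ones, was 1.43 for Il6 (95% interval -0.11 to 2.97, adjusted p = 0.890), 1.04 for Il18bp (95% interval 0.02 to 2.05, adjusted p = 0.890) and 0.64 for Il1r2 (95% interval 0.08 to 1.2, adjusted p = 0.890). Without GEM/anti-CD40 replicate 1 it was 0.71 for Il6, 0.61 for Il18bp and 0.57 for Il1r2. With all arrays the interaction was negative for 4 of the 9 genes. Among them was Il1rn, at -0.44 (95% interval -0.93 to 0.06, adjusted p = 0.890 by limma), and at -0.34 and -0.58 for its other 2 probe sets.

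**Figure D2:**
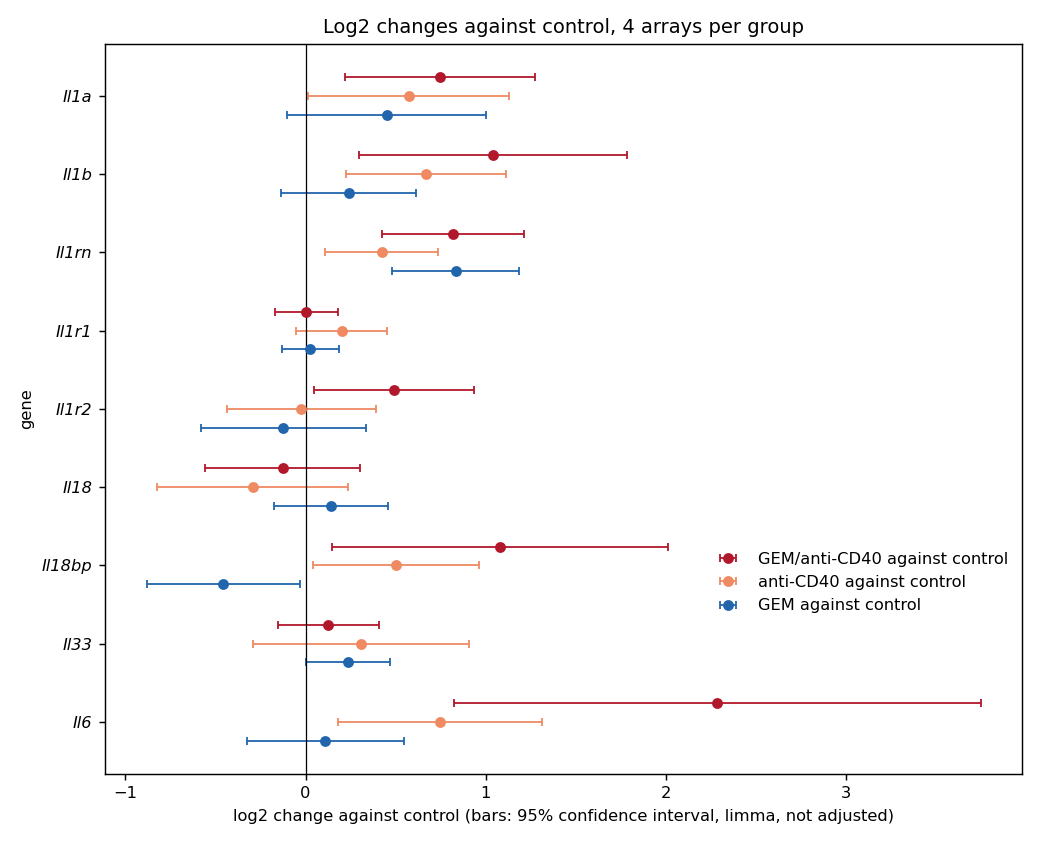
Log2 change against control (x axis) of each gene (y axis) in GEM/anti-CD40, anti-CD40 and GEM tumors, 4 arrays per group. Points are limma estimates and bars their 95% confidence intervals, not adjusted for the number of probe sets. The changes in GEM/anti-CD40 tumors reach 2.29 for Il6 and 0.01 for Il1r1, and the 3 comparisons share the control arrays.

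No member passed an adjusted p under 0.05 in any of the 8 comparisons by limma. Over all probe sets the share called was 0% in anti-CD40 against control, GEM against control, both comparisons of GEM/anti-CD40 with single treatments and the interaction, 0.0178% in GEM/anti-CD40 against control, 0.389% for the anti-CD40 main effect and 0.00222% for the GEM main effect, so that few genes of any kind passed. The members were chosen with earlier results of these data known, so their counts beside the shares of all genes are a description and no test. At an unadjusted p under 0.05, 6 of the 9 genes were higher in GEM/anti-CD40 than in control tumors, against 5.86% of all named genes. In anti-CD40 against control tumors 5 of 9 were higher, against 3.52%, and in GEM against control tumors 1 was higher and 1 lower, against 3.34% and 2.97%. For the anti-CD40 main effect 5 of 9 were higher, against 7.53%, and for the GEM main effect 2 of 9, against 3.10%.

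The groups did not overlap for 5 of the 9 genes in GEM/anti-CD40 against control tumors, all higher, against 3.00% of named genes. They did not overlap for 2 of 9 in GEM/anti-CD40 against GEM tumors, both higher, against 3.69%, for 1 of 9 in GEM against control tumors, against 1.83%, and for 0 of 9 in anti-CD40 against control tumors, against 1.66%. The median log2 change of the 9 genes was 0.75 in GEM/anti-CD40, 0.42 in anti-CD40 and 0.14 in GEM tumors against control, where the median over all named genes was between -0.02 and 0.00. These comparisons share the control arrays.

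To set agonists against antagonists and decoys, the log2 values of a pair were subtracted within each array, and only changes of this difference between groups were read. Il1b minus Il1rn was -0.08 to -1.2 in GEM/anti-CD40 tumors, -0.32 to -1.04 in anti-CD40 tumors, -1.15 to -1.54 in GEM tumors and -0.40 to -1.33 in control tumors. Its mean was -0.58 ± 0.48 in GEM/anti-CD40 tumors, -0.56 ± 0.33 in anti-CD40 tumors, -1.40 ± 0.18 in GEM tumors and -0.81 ± 0.40 in control tumors (SD, n = 4 each). Relative to control the balance was thus 0.60 lower in GEM tumors and 0.22 higher in GEM/anti-CD40 tumors, with overlap in both. The difference of GEM/anti-CD40 from control tumors was 0.055, 0.145 and 0.43 without GEM/anti-CD40 replicates 1, 2 and 3, 0.36 without control replicate 2 and 0.0475 without control replicate 4. Between GEM/anti-CD40 and GEM tumors the mean differed by 0.82, and 1 GEM/anti-CD40 array fell in the range of the GEM arrays.

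Il1a minus Il1rn averaged -1.63 ± 0.46 in GEM/anti-CD40, -1.41 ± 0.52 in anti-CD40, -1.94 ± 0.66 in GEM and -1.56 ± 0.65 in control tumors, differences within the spread of the groups. Against the decoy, Il1b minus Il1r2 averaged 0.72 ± 0.54 in GEM/anti-CD40, 0.86 ± 0.19 in anti-CD40, 0.53 ± 0.23 in GEM and 0.17 ± 0.33 in control tumors. The anti-CD40 arrays, between 0.65 and 1.03, did not overlap the control arrays, between -0.14 and 0.63, by a narrow gap. Il1a minus Il1r2 overlapped in all comparisons.

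Il18 minus Il18bp was the balance with the widest change. It averaged 1.95 ± 1.11 in GEM/anti-CD40, 2.37 ± 0.62 in anti-CD40, 3.76 ± 0.25 in GEM and 3.16 ± 0.56 in control tumors. GEM/anti-CD40 arrays lay between 0.57 and 3.10 and GEM arrays between 3.44 and 4.01, a difference of -1.81 without overlap, and GEM/anti-CD40 differed from control tumors by -1.21 with overlap (-0.75 without GEM/anti-CD40 replicate 1). Of 25 comparisons of the 5 pairs, 2 did not overlap. No test was made on these differences, and the pair of Il33 with its receptor was not analysed here.

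**Figure D3:**
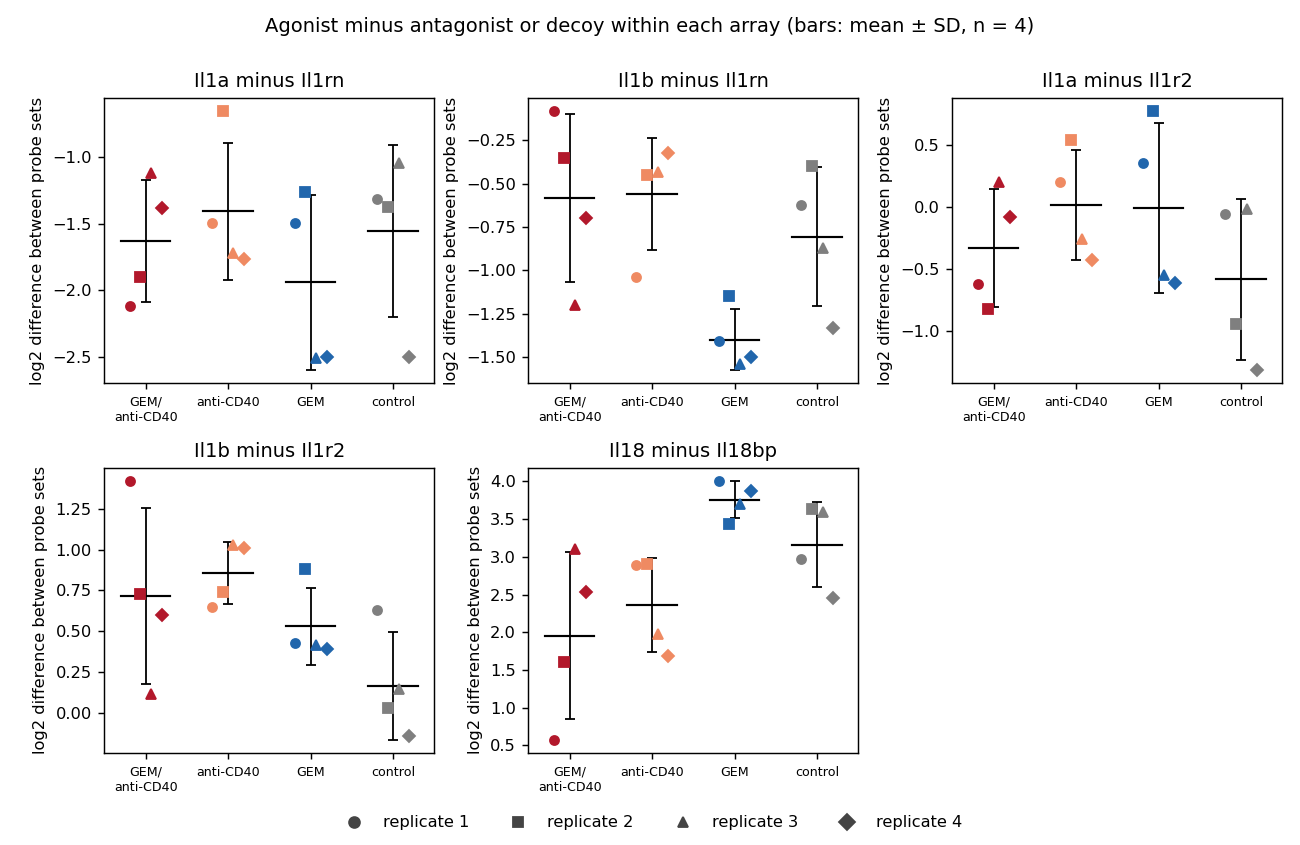
Log2 intensity of an agonist minus that of its antagonist or decoy in the same array (y axis), for 5 pairs in the GEM/anti-CD40, anti-CD40, GEM and control groups (x axis). Symbols are replicates and black bars the mean ± SD of 4 arrays. Il18 minus Il18bp lies between 0.57 and 3.10 in GEM/anti-CD40 tumors and between 3.44 and 4.01 in GEM tumors, and a level of 0 has no meaning because 2 probe sets are compared.

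The genes that IL-1 and NF-kB are known to induce, outside the family itself, were higher in both groups with the antibody. The mean of 22 such genes was 8.59, 8.27, 7.86 and 7.96 in GEM/anti-CD40 tumors, 7.79, 7.79, 8.03 and 7.94 in anti-CD40 tumors, 7.52, 7.48, 7.55 and 7.37 in GEM tumors, and 7.32, 7.52, 7.35 and 7.28 in control tumors. No array with the antibody overlapped one without it. This list, too, was chosen with earlier results of these data known. For the anti-CD40 main effect 21 of the 22 were higher, against 41.3% of named genes, and 5 rose, against 0.599% called, with a median of 0.35 against -0.02 over all genes. These were Saa3, an acute phase protein (3.45, SE 0.48, adjusted p = 0.0172), the neutrophil chemokine Cxcl3 (0.92, adjusted p = 0.0201), the collagenase Mmp13 (0.82, adjusted p = 0.0251) and the monocyte chemokines Ccl7 (1.17, adjusted p = 0.0321) and Ccl2 (1.07, adjusted p = 0.0434). Leaving out 1 array at a time, Saa3 lost its call without GEM replicate 1 (adjusted p = 0.0519), and Cxcl3 without GEM replicate 1, control replicate 3 or anti-CD40 replicate 4 (up to 0.0576). Mmp13, Ccl7 and Ccl2 lost it in 6, 9 and 10 of 16 such fits (up to 0.0731, 0.0877 and 0.105), with changes of 0.74 to 1.33 in all of them. With GEM replicates 3 and 4, which share an animal number, averaged, Mmp13 (adjusted p = 0.0598), Ccl7 (0.0704) and Ccl2 (0.0885) lost their calls, and Saa3 and Cxcl3 kept theirs.

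Cxcl3 was the gene of all lists that also rose in GEM/anti-CD40 against control tumors. It measured 8.97, 9.05, 8.90 and 8.31 in GEM/anti-CD40 tumors, 7.45, 8.41, 8.34 and 8.06 in anti-CD40 tumors, 8.18, 7.99, 8.19 and 7.64 in GEM tumors, and 7.07, 7.17, 6.92 and 7.0 in control tumors. Control arrays lay below all others, and the difference of GEM/anti-CD40 tumors was 1.77 (SE 0.15, adjusted p = 0.0113), that of GEM tumors 0.96 (SE 0.12, adjusted p = 0.158) and that of anti-CD40 tumors 1.03 (SE 0.19, adjusted p = 0.680). The call of Cxcl3 was lost in 5 of 8 fits that left out 1 array, without control replicates 1, 3 or 4 or GEM/anti-CD40 replicates 1 or 2, at adjusted p values up to 0.0910 and with a change of at least 1.69. All 22 targets were higher in GEM/anti-CD40 than in control tumors, 1 of them past the threshold, against 44.6% of named genes higher and 0.0275% called, with a median change of 0.52.

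Saa3 measured 13.04, 11.63, 9.10 and 10.68 in GEM/anti-CD40 tumors, 9.08, 8.05, 8.92 and 10.92 in anti-CD40 tumors, 6.24, 6.47, 7.15 and 6.32 in GEM tumors, and 6.17, 7.56, 6.95 and 6.93 in control tumors. As with Il6, replicate 1 was the highest GEM/anti-CD40 array, and the groups with and without the antibody did not overlap. Saa3 was 4.21 higher in GEM/anti-CD40 than in control tumors (SE 0.72, adjusted p = 0.278).

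No gene of the other 4 pathway lists passed the test in these comparisons. Of 9 measured genes of inflammasomes and IL-1 processing, 8 were higher in GEM/anti-CD40 than in control tumors, with a median of 0.28. Among them Casp1, the protease that matures IL-1 beta and IL-18, differed by 1.27 (SE 0.46, adjusted p = 0.480) and Casp4, a sensor of intracellular lipopolysaccharide, by 1.42 (SE 0.43, adjusted p = 0.449). Of 17 genes of IL-1 receptor signaling, 14 were higher with a median of 0.07, among them the inhibitors Nfkbia (0.41, adjusted p = 0.444) and Tnfaip3 (0.40, adjusted p = 0.402). Of 15 genes of the IL-6 receptor pathway, 12 were higher with a median of 0.21. The receptor chain Osmr differed by 0.55 (SE 0.07, adjusted p = 0.130), the inhibitor Socs3 by 0.48 (adjusted p = 0.447) and the receptor Il6ra by 0.49 (adjusted p = 0.407). Of 7 other IL-1 family ligands and receptors, 5 were higher with a median of 0.20. Of all named genes, 44.6% were higher in GEM/anti-CD40 than in control tumors. Il1rap, the accessory chain of Il1r1, differed by 0.37 (adjusted p = 0.576).

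**Figure D4:**
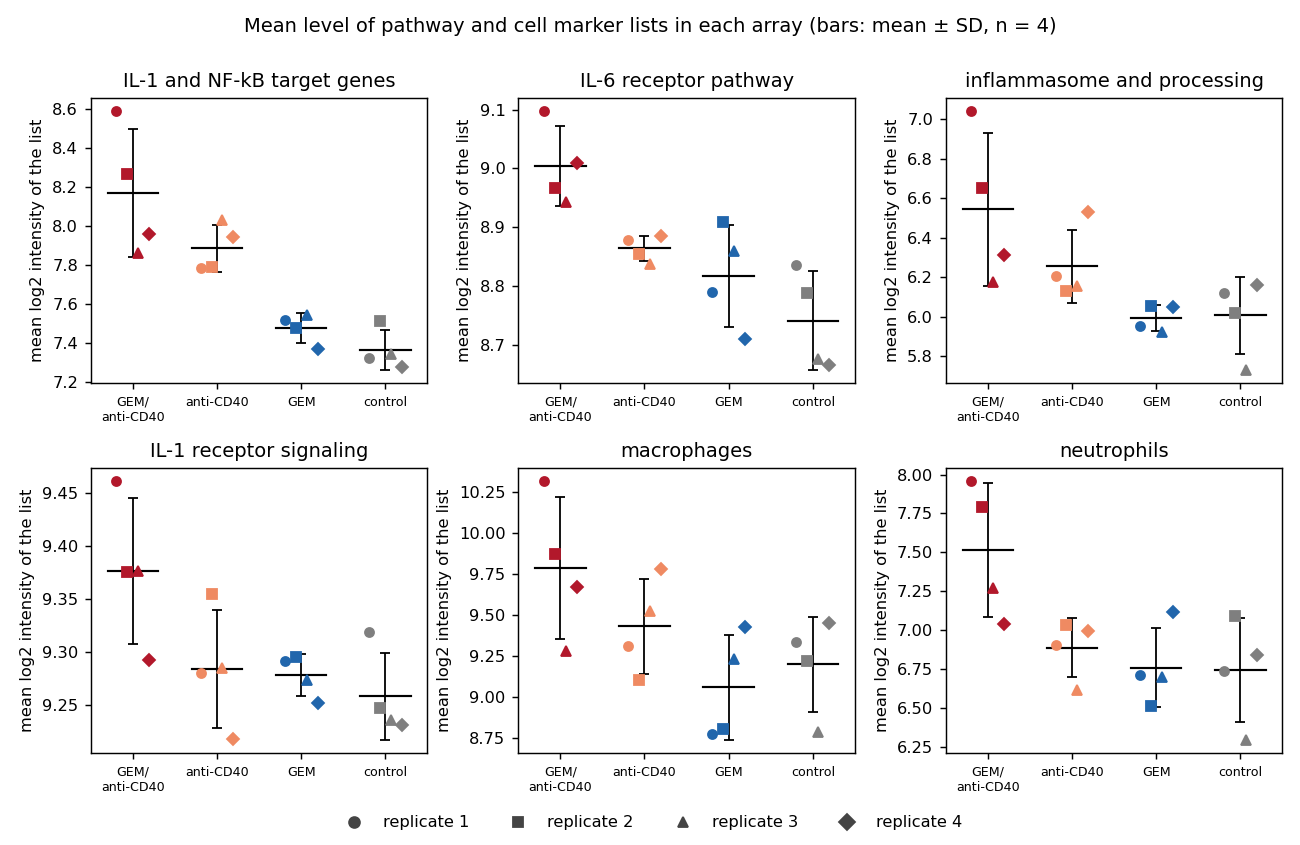
Mean log2 intensity of a gene list in each array (y axis) for 4 pathway lists and 2 cell marker lists in the GEM/anti-CD40, anti-CD40, GEM and control groups (x axis). Symbols are replicates and black bars the mean ± SD of 4 arrays. The IL-1 and NF-kB target genes lie between 7.79 and 8.59 in the groups with the antibody and between 7.28 and 7.55 in those without, and macrophage and neutrophil markers are highest in GEM/anti-CD40 replicate 1.

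The group mean of the target genes was higher in both groups with the antibody than in either group without. So were those of macrophage, neutrophil, endothelial, T cell and fibroblast markers, but not those of mast cell and dendritic cell markers. T cell markers averaged 6.195 in GEM/anti-CD40, 6.31 in anti-CD40, 5.48 in GEM and 5.93 in control tumors. Fibroblast markers averaged 9.98, 10.25, 9.885 and 9.85 in the same order. The 8 macrophage markers averaged 10.32, 9.87, 9.28 and 9.67 in GEM/anti-CD40 tumors, 9.32, 9.11, 9.53 and 9.78 in anti-CD40 tumors, 8.78, 8.81, 9.23 and 9.43 in GEM tumors, and 9.34, 9.22, 8.79 and 9.46 in control tumors. The 6 measured neutrophil markers averaged 7.96, 7.79, 7.27 and 7.04 in GEM/anti-CD40 tumors, 6.91, 7.03, 6.62 and 7.0 in anti-CD40 tumors, 6.71, 6.52, 6.70 and 7.12 in GEM tumors, and 6.74, 7.09, 6.30 and 6.85 in control tumors. GEM/anti-CD40 replicate 1, the highest array for Il1b, Il18bp and Il6, was also the highest for both lists. None of their markers passed in GEM/anti-CD40 against control tumors, where all 8 and all 6 were higher, and Itgam (0.96, adjusted p = 0.0398) and Lyz2 (0.76, adjusted p = 0.0434) of the macrophage list rose for the anti-CD40 main effect, calls that were lost in 10 and 11 of the 16 fits without 1 array (adjusted p up to 0.102 and 0.109) and with GEM replicates 3 and 4 averaged (0.0765 and 0.0780). Of the markers of other cells none passed. Higher in GEM/anti-CD40 than in control tumors were 6 of 6 endothelial, 5 of 8 fibroblast, 4 of 7 T cell, 3 of 6 mast cell and 1 of 4 dendritic cell genes. The share of named genes was 44.6%. For the anti-CD40 main effect these counts were 6, 7, 4, 2 and 1, against 41.3% of named genes. The median was 0.58 for endothelial, 0.45 for macrophage, 0.46 for neutrophil, 0.26 for T cell and 0.24 for fibroblast markers. It was -0.03 for mast cell and -0.09 for dendritic cell markers. At an unadjusted p under 0.05 by limma, 5 of 6 endothelial, 5 of 6 neutrophil, 5 of 8 macrophage and 4 of 7 T cell markers were higher. So were 2 of 8 fibroblast, 1 of 6 mast cell and 1 of 4 dendritic cell markers, against 7.53% of named genes, and 2 dendritic cell markers were lower. In anti-CD40 against control tumors the medians were 0.58 for endothelial and 0.50 for fibroblast markers. Those of macrophage, T cell and neutrophil markers were 0.21, 0.18 and 0.165, and those of mast cell and dendritic cell markers -0.24 and -0.11. The endothelial mean was 6.91, 6.57, 6.58 and 7.43 in GEM/anti-CD40 replicates 1 to 4, of which replicate 1 was highest for Il1b, Il18bp and Il6. In anti-CD40 tumors it was highest in replicate 1, at 7.18, where Il1b was lowest. The neutrophil mean was lowest in anti-CD40 tumors in replicate 3, at 6.62, where Il1b was 8.31. The macrophage mean was highest in control tumors in replicate 4, at 9.46, where Il1b was 7.41. The T cell mean was the highest of its group in GEM/anti-CD40 replicate 1, at 6.63, and in anti-CD40 replicate 4, at 6.81, as Il1b was. The part of these cells in the values of Il1b, Il18bp, Il6 and the target genes was not tested.

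The 5 named genes whose pattern over the 16 arrays was most like that of a member were sought by Pearson correlation, as a description. Arrays of 1 treatment group share that treatment, so the correlation within groups is given beside it. For Il1b they were Cd53 (r = 0.95, 0.90 within groups), Itgam (0.95, 0.92), Rnf149 (0.94, 0.89), Pstpip1 (0.94, 0.91) and Pla2g7 (0.93, 0.92), of which Cd53 and Itgam code for surface proteins of leukocytes. For Il6 they were Trps1 (0.94, 0.89), Slfn1 (0.94, 0.85), Chil3 (0.94, 0.83), Rnd1 (0.93, 0.81) and Fpr2 (0.92, 0.79). Chil3 is a lectin of activated macrophages and Fpr2 a chemotactic receptor of neutrophils and macrophages.

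For Il1rn the most alike were Rpia (0.81, 0.52 within groups), Ctps (0.80, 0.49), Mogs (0.80, 0.36), Ccnd3 (0.79, 0.52) and F7 (0.79, 0.67). These correlations were weaker than those of Il1b, above all within groups. For Il33 they were Srp19 (0.96, 0.97 within groups), Ank (0.94, 0.95), Cbfb (0.92, 0.92), Lpgat1 (0.91, 0.92) and Glp1r (0.91, 0.92). Anti-CD40 replicate 3 was the highest array for Srp19 as for Il33, at 11.12 against 10.47 to 10.84 in all other arrays, and without it the correlations of these 5 genes with Il33 were between 0.62 and 0.94.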

How the data were processed

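RNA of tumor pieces was measured on 16 Affymetrix mouse expression arrays, 4 per group. The authors processed the arrays with RMA and deposited log2 intensities with 2 decimals. Differences of low probe sets tend to be compressed in array intensities. The RMA version is not given in the sources used here. After 64 control probe sets were left out, 45037 were tested in limma 3.58.1 (R 4.3.3) with moderated variances and Benjamini-Hochberg adjustment over all, two-sided, at 0.05. Pairs of groups were fitted on their 8 arrays and main effects and the interaction on 16. The annotation gave 1 gene symbol for 34945 probe sets, several for 932 and none for 9160, and each of 18193 genes was represented by its probe set with the highest mean. The fits were tested on simulated data. Named are all members, every list gene that passed, otherwise up to 4 with the smallest p per list, and the 5 genes most alike to Il1b, Il1rn, Il33 and Il6, beside Casp1, Socs3 and Il1rap, chosen after their values were seen. Members and lists were chosen with earlier results of these data known. Replicate numbers were not taken as a pairing of the arrays. The number of arrays limits the precision, and p-values measure the spread between these samples, of which GEM replicates 3 and 4 share an animal number. Alternatives were the variance prior, array weights, scaling, normalization, the choice of probe set, a filter on dim probe sets, a fold threshold, a replicate block, averaging GEM replicates 3 and 4, and leaving out arrays.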

Additional observations from a re-analysis of the deposited data

Results flagged for a closer look

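Within a group of 4 arrays, a value was marked where its gap to the nearest other array exceeded 0.829 of the range of the group (Dixon's test at 95%), which chance alone gives in about 1 of 20 groups. Of 36 groups of the 9 genes, 2 were marked. Il1a was lowest in control replicate 4 at 6.24, against 7.03 in the next array. Il18bp was highest in GEM replicate 2 at 6.51, against 6.06 in the next array. Il6 and Il18bp in GEM/anti-CD40 replicate 1 and Il33 in anti-CD40 replicate 3 did not reach the limit.

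Of 60 groups of the 15 gene lists, 3 were marked. The skin keratinocyte list was highest in anti-CD40 replicate 2 at 7.71, against 5.34 in the next array, and in control replicate 2 at 9.81, against 5.41. The skeletal muscle list was highest in GEM/anti-CD40 replicate 4 at 13.02, against 6.18 in the next array. No interaction of GEM and anti-CD40 passed an adjusted p under 0.05 for any member.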

How the results depend on the processing

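Counts of members past the threshold, 0 in each of the 8 comparisons, differed only for the anti-CD40 main effect, with 1 member when dim probe sets were left out (Il18bp, adjusted p = 0.0498) and 1 with array weights (Il18bp, 1.11, adjusted p = 0.0423). With 1 array left out it was between 0 and 3. Of 1594 log2 changes of members under alternatives, 45 changed sign, none of them past the threshold. Il1r2 differed by 0.14 in anti-CD40 and by 0.049 in GEM against control tumors without the arrays with skin or muscle genes. Il1r1 in GEM/anti-CD40 against control tumors was -0.013 with array weights, -0.045 scaled to the 75th percentile and -0.031 after quantile normalization. Il1rn in GEM/anti-CD40 against GEM tumors was 0.027 with array weights, 0.054 with GEM replicates 3 and 4 averaged and 0.091 without the arrays with skin or muscle genes. The GEM main effect of Il33 was -0.079 without those arrays, and the interaction of Il18 was -0.013 with array weights and -0.0092 with GEM replicates 3 and 4 averaged. The cause was not tested.

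Leaving out 1 array, signs changed within these ranges. In anti-CD40 against control tumors Il1r2 was -0.15 to 0.15. In GEM against control tumors Il18 was -0.0058 to 0.21, Il1r1 -0.0092 to 0.074, Il1r2 -0.25 to 0.049 and Il6 -0.047 to 0.31. In GEM/anti-CD40 tumors Il1r1 was -0.032 to 0.052 against control, Il1r1 -0.0575 to 0.0058 and Il1rn -0.15 to 0.091 against GEM, and Il18 -0.027 to 0.32 and Il33 -0.32 to 0.12 against anti-CD40. The anti-CD40 main effect of Il33 was -0.050 to 0.17, the GEM main effect -0.15 to 0.17 for Il18bp and -0.042 to 0.18 for Il33, and the interaction -0.17 to 0.18 for Il18 and -0.17 to 0.35 for Il1b.

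Over all probe sets, the anti-CD40 main effect gave 175 calls, 18 to 485 under the other settings and 7 to 701 with 1 array left out. GEM/anti-CD40 against control tumors gave 8, 0 to 44 and 0 to 11, GEM against control 0, 0 to 8 and 0 to 8, the GEM main effect 1, 0 to 4 and 0 to 6, anti-CD40 against control 0, 0 to 3 and 0 to 2, and GEM/anti-CD40 against GEM 0, 0 to 1 and 0 to 1. No probe set was called for GEM/anti-CD40 against anti-CD40 tumors or the interaction in limma, where 2072 and 2359 had an unadjusted p under 0.05. With the replicate number as a block no member was called (smallest adjusted p = 0.0888, Il18bp, anti-CD40 main effect), and the calls over all probe sets were 54 for that effect and 0 in GEM/anti-CD40 against control tumors. Same-numbered arrays deviated together with a median correlation of 0.04, against -0.02 for other pairs. Correlations above 0.1 were found for 10 of 24 same-numbered and 19 of 72 other pairs. These values cannot exclude a pairing by number. With the block Cxcl3 lost its call in GEM/anti-CD40 against control tumors (adjusted p = 0.0800), and Ccl2, Mmp13, Itgam and Lyz2 theirs for the anti-CD40 main effect. With GEM replicates 3 and 4 averaged, that effect had 18 calls, without Ccl2, Ccl7, Mmp13, Itgam and Lyz2. The 335 recomputed changes of the agonist and antagonist balances stayed within 1 SD, a limit that only some settings could have passed. With 4 arrays per group, leaving out 1 array cannot shift a group mean by that much. Scaling of an array cancels in the difference of a pair. For these settings the limit thus shows nothing about stability. When 1 array was left out, 7 of 25 balances turned sign. Among them were Il1a minus Il1rn in GEM/anti-CD40 (-0.39 to 0.097) and anti-CD40 tumors (-0.165 to 0.32) against control. Another was Il18 minus Il18bp in GEM/anti-CD40 against anti-CD40 tumors (-0.795 to 0.048).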
